A study of Mus musculus with 15 samples.

Results

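The 9 genes described here encode receptors through which hematopoietic stem cells (HSC) receive signals from the bone marrow niche: Kit, Tek, Cxcr4, Il6st, Ifngr1, Ifnar1, Tnfrsf1a, Epor and Il6ra. They were taken by name as rows of the deposited count table, in which all 9 were present among 16154 genes. The rule used no measured value, although the genes were chosen with earlier results of these data known. HSC were sorted from the bone marrow of C57BL/6 mice labelled female, and the study describes RNA taken from individual mice. Young mice were 6 to 12 weeks old, aged mice were 20 to 24 months old, and the treated group held aged mice of 20 to 24 months that had taken nicotinamide riboside (NR), a precursor of NAD, in drinking water at 3 mg/ml for 2 months. Each group had 5 libraries. The labels give no genotype beyond the strain. HSC were gated on surface cKit, the protein that Kit encodes, so 1 of the 9 receptors was itself part of the sort.

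Stem cells sit in the marrow beside endothelial and stromal cells that supply short-range signals. Stem cell factor binds cKit and angiopoietin binds Tie2, the product of Tek, and both receptors are tyrosine kinases that feed PI3K and Akt. The chemokine Cxcl12 holds HSC in the marrow through the G protein-coupled receptor Cxcr4. Interleukin-6, interferons and erythropoietin bind receptors without a kinase of their own, which use Jak kinases and Stat factors, and tumour necrosis factor binds Tnfrsf1a, which recruits Traf adaptors and reaches NF-kB.

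Counts were divided by effective library sizes from edgeR's TMM method and are given as CPM, a count relative to the size of its library, and differences were tested with edgeR's quasi-likelihood test in 1 fit of all 15 libraries, with Benjamini-Hochberg adjustment over all 16154 genes and a threshold of 0.05 on the adjusted p. Library totals ran from 764119 to 13318989 counts. Both ends of that range were aged libraries, replicate 2 being the smallest and replicate 3 the largest. The median total was 2685764 in young, 6007460 in aged and 3162434 in NR-treated aged HSC. Apart from replicate 2, every aged library exceeded every young and NR-treated library, so depth went with group in both comparisons that include aged HSC. Thinning to the smallest total was among the alternatives. All 9 receptor genes had more than 5 counts in every library, and the lowest count of each was in aged replicate 2, from 7 for Cxcr4 to 249 for Kit. All 8 HSC markers examined were present in every group, but 4 were called higher and 0 lower in aged than in young HSC. Slamf1, the gene of the sort marker CD150, was among the 4 (log2 difference 0.84) and was lower in NR-treated than in aged HSC (-0.51). In NR-treated against young HSC 3 of the 8 were higher. Of 3 progenitor markers 2 were lower in aged than in young HSC. Whether the make-up of the sorted cells differed between groups was not tested. Transcripts of mature cells differed between libraries. The 7 granulocyte markers summed to 23.7 to 5203 CPM in young, 1031 to 1659.7 CPM in aged and 15.7 to 166 CPM in NR-treated aged HSC, and the highest sum was that of young replicate 3. The sums of 7 erythroid markers ran 2244 to 3996, 4746 to 7341 and 1911 to 2880.1 CPM in the same order. The sums of 7 B and plasma cell markers were 102 to 767 CPM in young, 611 to 4422 CPM in aged and 84.4 to 165 CPM in NR-treated aged HSC, 4 of the 7 being higher in aged than in young HSC and 6 lower in NR-treated than in aged HSC. Although the labels give female mice, 4 Y-linked genes summed to 104 CPM in young replicate 1 and to 108 CPM in young replicate 5, against 0.757 to 3.16 CPM in the other libraries. Xist, a transcript of female cells, was at 436 CPM in young replicate 1 and 482 CPM in young replicate 5, against 296 to 919 CPM in the other libraries. Why these libraries held both kinds of transcript was not tested. The tests of the 9 genes were also computed without young replicates 1 and 5, and without young replicate 3 and aged replicate 2. The libraries are bulk samples, in which fewer cells of a type and less RNA per cell cannot be told apart.

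Between aged and young HSC, Il6st, which encodes the shared signalling chain gp130, was the only 1 of the 9 genes to pass the test, and it was 1.55-fold higher in aged HSC. Over all genes 19.3% passed in this comparison, so 1 of 9 receptor genes was not a larger share than among genes in general. No receptor gene passed between NR-treated aged and aged HSC, where 8.07% of all genes did, or between NR-treated aged and young HSC, where 4.47% did. In NR-treated against aged HSC, DESeq2, limma-voom and edgeR's likelihood ratio test each called 1 receptor gene, and in NR-treated against young HSC DESeq2 and the likelihood ratio test called 1 and limma-voom 0. Before adjustment, 2 receptor genes had p under 0.05 with the quasi-likelihood test in aged against young HSC, 5 in NR-treated against aged HSC and 2 in NR-treated against young HSC, beside 33.2%, 25.1% and 18% of all genes. The libraries of both groups did not overlap for 1 receptor gene in the first comparison (12.4% of all genes) and for 0 in the second (8.6%) and in the third (4.74%). The median log2 fold change of the 9 genes was -0.02 in aged against young HSC and -0.03 for all genes. It was -0.29 in NR-treated against aged HSC, where the median of all genes was 0.02. The same 5 aged libraries enter the first and the second comparison. Ifnar1, which encodes a chain of the type I interferon receptor, and Il6ra, which encodes the interleukin-6 binding chain, lay just outside the threshold in 1 comparison each.

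**Figure D1:**
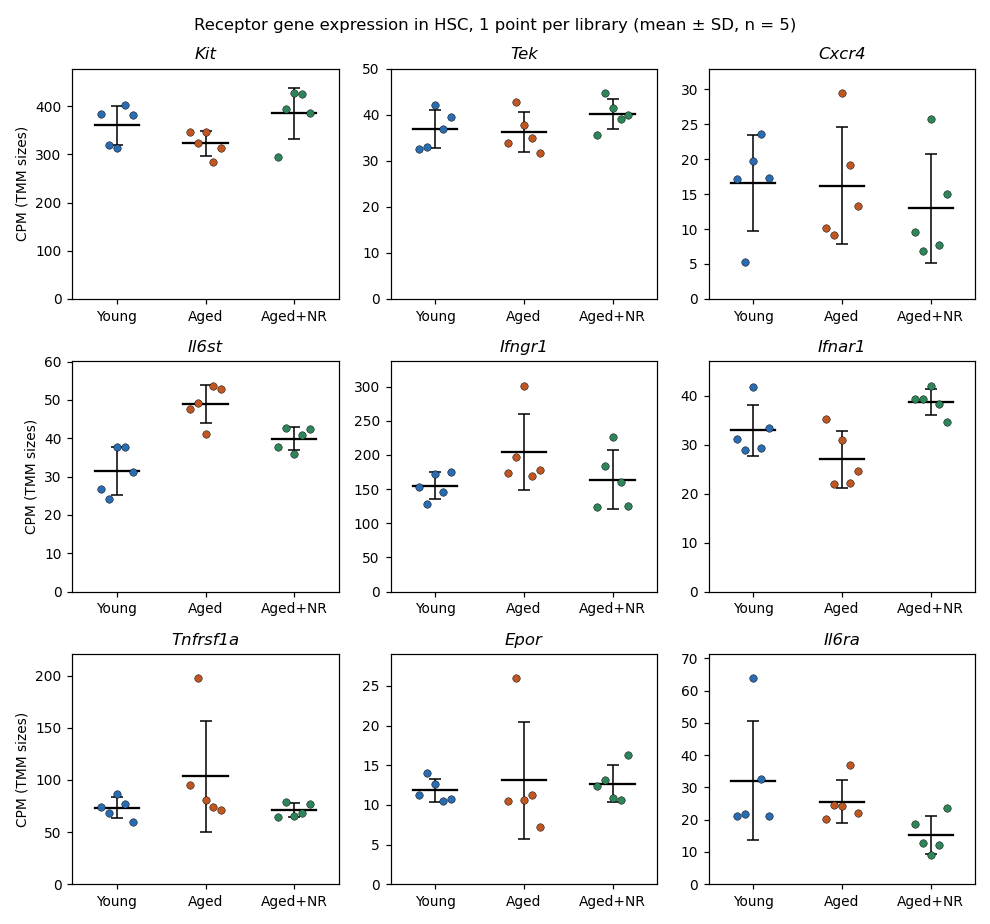
CPM (TMM sizes, vertical axes from 0) of the 9 receptor genes in young, aged and NR-treated aged HSC (Aged+NR), with 1 point per library and bars for the mean ± SD (n = 5). All 5 aged libraries lie above all 5 young libraries in the panel of Il6st, while single libraries stand apart in those of Il6ra (63.8 CPM), Ifngr1 (301 CPM), Tnfrsf1a (197 CPM) and Epor (25.9 CPM).

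**Figure D2:**
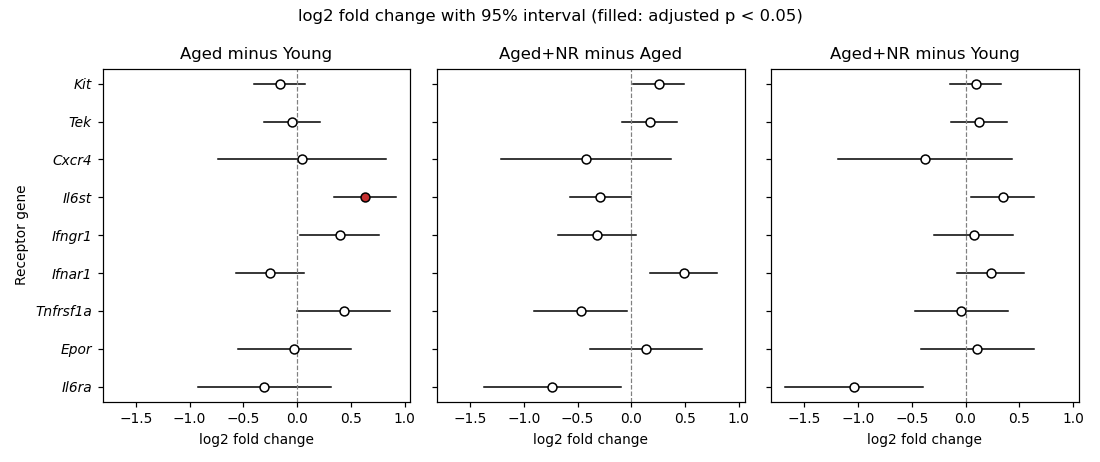
Log2 fold change (horizontal axes) of each receptor gene in the 3 comparisons, with 95% intervals from the fit of all 15 libraries. The 1 filled point, Il6st in aged against young HSC at 0.63, passed an adjusted p of 0.05, and the open points did not.

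Kit (ENSMUSG00000005672.12, chr5:75574916-75656722, plus strand, GRCm38) encodes the receptor of stem cell factor, the cytokine on which HSC maintenance depends. Kit was measured in young HSC at 385, 320.3, 313, 402 and 381 CPM, in aged HSC at 347, 323, 346, 284 and 313 CPM and in NR-treated aged HSC at 295, 394, 427, 424 and 385 CPM, in replicates 1 to 5 of each group. The 3 groups overlapped, although 4 of the 5 NR-treated libraries lay above every aged library. The log2 fold change was -0.16 (SE 0.11) in aged against young HSC and 0.25 (SE 0.11) in NR-treated against aged HSC, with adjusted p-values of 0.343 and 0.164 by edgeR's quasi-likelihood test. The 95% interval of the second difference ran from 0.02 to 0.49 before adjustment. Without NR-treated replicate 1, the lowest of its group, the second difference was 0.35 and passed the threshold (adjusted p = 0.0482), and with library totals in place of TMM it was 0.39 (adjusted p = 0.0389). NR-treated and young HSC differed by 0.09 on the log2 scale (95% interval -0.14 to 0.33). Since the sort selected for surface cKit, these values describe Kit transcript in the sorted samples, which also held transcripts of mature cells.

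Tek (ENSMUSG00000006386.15, chr4:94739289-94874976, plus strand) encodes Tie2, the angiopoietin receptor associated with quiescent HSC. Its level spanned 31.7 to 44.7 CPM over all 15 libraries, the narrowest relative range of the 9 genes. Tek was measured in young HSC at 32.6, 33.0, 42.2, 37.0 and 39.6 CPM, in aged HSC at 33.8, 42.8, 37.9, 35.0 and 31.7 CPM and in NR-treated aged HSC at 35.6, 44.7, 41.6, 39.1 and 40.03 CPM, and the groups overlapped throughout. The log2 difference was -0.05 in aged against young HSC (95% interval -0.31 to 0.21), 0.17 in NR-treated against aged HSC (-0.09 to 0.43) and 0.12 in NR-treated against young HSC (-0.14 to 0.38), none of which passed the test. Tie1, which encodes an orphan receptor that pairs with Tie2, was at 80.0 ± 6.31 CPM in young, 67.9 ± 5.72 CPM in aged and 83.9 ± 2.47 CPM in NR-treated aged HSC (mean ± SD, n = 5). It was higher in NR-treated than in aged HSC by 0.32 on the log2 scale (adjusted p = 0.0493, edgeR quasi-likelihood test), and this call held in 9 of 26 alternatives.

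Cxcr4 (ENSMUSG00000045382.6, chr1:128588199-128592293, minus strand) encodes the receptor that retains HSC near cells that make Cxcl12. It was the most variable of the 9 genes within aged and NR-treated aged HSC apart from Epor in aged HSC, with coefficients of variation of 41.4% in young, 51.6% in aged and 60.0% in NR-treated aged HSC. Cxcr4 was measured in young HSC at 17.2, 5.22, 19.8, 23.6 and 17.3 CPM, in aged HSC at 10.1, 9.08, 29.4, 19.2 and 13.3 CPM and in NR-treated aged HSC at 9.60, 6.86, 25.7, 7.67 and 14.98 CPM. Every group held libraries under 10 CPM and libraries above 17 CPM. The lowest young value, 5.22 CPM, came from 13 counts, and the 7 counts of aged replicate 2 are the smallest in the 9 genes. The log2 difference was 0.04 in aged against young HSC (95% interval -0.74 to 0.83) and -0.42 in NR-treated against aged HSC (-1.21 to 0.37), and neither passed the test. Both intervals are wide, and the direction of the first difference turned with the setting used.

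Il6st (ENSMUSG00000021756.12, chr13:112464070-112510086, plus strand) encodes gp130, which transmits the signals of interleukin-6, interleukin-11, oncostatin M, leukemia inhibitory factor and interleukin-27 after a partner chain has bound the cytokine. Il6st was measured in young HSC at 26.7, 24.1, 37.7, 37.7 and 31.3 CPM, in aged HSC at 47.7, 49.3, 41.2, 53.7 and 52.8 CPM and in NR-treated aged HSC at 37.9, 42.6, 35.8, 40.9 and 42.5 CPM. All 5 aged libraries lay above all 5 young libraries, a separation shown by 6.86% of all genes in this direction. The NR-treated libraries lay between the group means of the others, and 4 of the 5 exceeded every young library. The mean rose from 31.5 ± 6.23 CPM in young to 48.9 ± 4.996 CPM in aged HSC (SD, n = 5), a log2 fold change of 0.63 (SE 0.14, 95% interval 0.34 to 0.92, adjusted p = 0.00386, edgeR quasi-likelihood test). The change kept its direction and passed the test in 26 of 26 alternatives, from 0.50 with library totals to 0.79 after thinning to the smallest total. Without young replicates 1 and 5 together it was 0.56 (adjusted p = 0.0390). NR-treated HSC were at 39.9 ± 3.01 CPM. They differed from aged HSC by -0.29 (95% interval -0.57 to -0.003, adjusted p = 0.194, edgeR quasi-likelihood test). From young HSC they differed by 0.34 (0.05 to 0.64, adjusted p = 0.189, same test). Neither difference passed after adjustment over all genes, although both unadjusted intervals lay on 1 side of no change.

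Il6ra (ENSMUSG00000027947.11, chr3:89864059-89913196, minus strand) encodes the chain that binds interleukin-6 and presents it to gp130. It shares exon bases with the antisense gene Gm42809. The study sequenced cDNA in the sense direction, but the strand setting of the counting is not given in the sources used here. Whether reads of Gm42809 entered the Il6ra counts is therefore unknown. Il6ra was measured in young HSC at 21.1, 21.7, 63.8, 32.7 and 21.0 CPM, in aged HSC at 20.1, 24.7, 24.3, 37.0 and 22.1 CPM and in NR-treated aged HSC at 18.6, 12.8, 8.94, 12.1 and 23.7 CPM. Young replicate 3 stood at 63.8 CPM against 32.7 CPM in the next young library, and 4 of the 5 NR-treated libraries lay below every young and every aged library. NR-treated and young HSC differed by -1.04 on the log2 scale (SE 0.31, 95% interval -1.68 to -0.40), with an adjusted p of 0.0594 that missed the threshold by edgeR's quasi-likelihood test. The likelihood ratio test of edgeR gave -1.05 (adjusted p = 0.0210) and DESeq2 gave -1.06 (adjusted p = 0.0145) for the same difference. Without young replicate 3 it was -0.64 (adjusted p = 0.193), and without young replicates 1 and 5 together it was -1.34 (adjusted p = 0.0228). Against aged HSC the NR-treated libraries differed by -0.73 (SE 0.31, adjusted p = 0.139), and the difference of aged from young HSC was -0.30 (adjusted p = 0.515), which became 0.09 without young replicate 3.

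Il6ra was set beside transcripts of mature myeloid cells. The summed level of 13 granulocyte and monocyte markers was 87.7, 33.8, 5944, 891 and 82.0 CPM in young, 1439, 1819, 2307, 1748 and 1842 CPM in aged and 37.3, 65.3, 31.9, 20.5 and 239.6 CPM in NR-treated aged HSC, in replicates 1 to 5. The young library with the highest sum, replicate 3, was also the one with the highest Il6ra, and replicate 4 was second in both. All 5 aged libraries had higher sums than young replicates 1, 2, 4 and 5, while 4 of the 5 had Il6ra values between 20.1 and 24.7 CPM, close to those of young replicates 1, 2 and 5. The gene whose pattern over the 15 libraries was most like that of Il6ra was Fn1, which encodes fibronectin, with a Pearson r of 0.942 on log2 CPM, and it was at 7.72, 8.04, 88.0, 19.2 and 5.39 CPM in young, 11.3, 15.6, 25.6, 36.1 and 18.7 CPM in aged and 6.21, 2.09, 1.56, 3.65 and 9.53 CPM in NR-treated aged HSC. All 7 granulocyte markers and 4 of the 6 monocyte markers measured were lower in NR-treated than in aged HSC by the same test. The part of these transcripts in the Il6ra values was not tested.

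**Figure D3:**
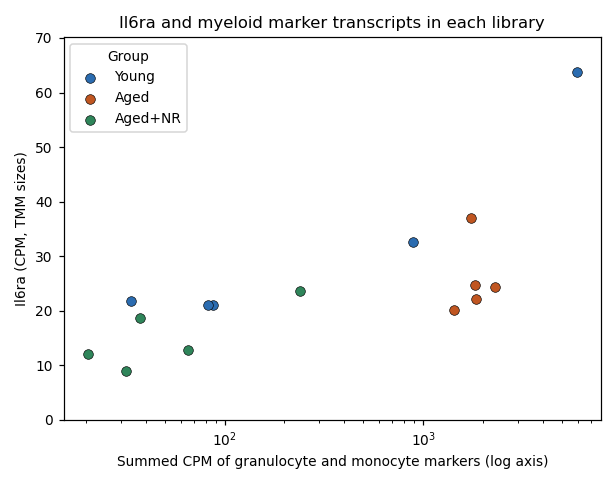
Il6ra (CPM, vertical axis from 0) against the summed CPM of 13 granulocyte and monocyte markers (horizontal log axis), with 1 point per library coloured by group. Young replicate 3 stands alone at the upper right with 63.8 CPM of Il6ra, and the 4 lowest Il6ra values are NR-treated libraries with marker sums under 100 CPM.

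The 250 bases before the RefSeq start of Il6st, Il6ra and Ifnar1 are shown because these 3 genes carried the only call and the 2 values nearest to the threshold (GRCm38.p6, 5′ to 3′ on the strand of the gene). The windows are chr13:112463820-112464069 on the plus strand for Il6st, chr3:89913197-89913446 on the minus strand for Il6ra and chr16:91484965-91485214 on the plus strand for Ifnar1, and that of Il6ra overlaps an exon of Gm42809. Capitals mark matches, on either strand, to the letters searched.
Il6st promoter: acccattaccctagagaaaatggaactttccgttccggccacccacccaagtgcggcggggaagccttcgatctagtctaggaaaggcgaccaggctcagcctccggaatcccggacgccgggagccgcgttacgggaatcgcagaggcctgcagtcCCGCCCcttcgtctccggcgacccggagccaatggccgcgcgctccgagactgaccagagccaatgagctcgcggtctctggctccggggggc
Il6ra promoter: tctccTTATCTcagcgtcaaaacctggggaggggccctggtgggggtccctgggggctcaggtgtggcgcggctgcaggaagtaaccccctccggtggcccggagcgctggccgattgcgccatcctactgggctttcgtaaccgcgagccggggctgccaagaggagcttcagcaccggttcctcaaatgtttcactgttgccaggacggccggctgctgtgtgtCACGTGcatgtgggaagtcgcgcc
Ifnar1 promoter: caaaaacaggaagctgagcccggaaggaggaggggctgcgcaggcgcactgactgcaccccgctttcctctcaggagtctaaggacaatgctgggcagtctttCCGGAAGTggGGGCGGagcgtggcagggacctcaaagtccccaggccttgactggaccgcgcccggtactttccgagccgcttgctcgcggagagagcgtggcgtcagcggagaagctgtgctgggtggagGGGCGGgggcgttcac
Searched letters were TTCNNNGAA for a Stat site of the GAS type, AGATAA for Gata, CCGGAAGT for Ets, GGGCGG for Sp1, TGTGGT for Runx, CACGTG for an E-box and TGANTCA for AP-1, and an interferon response element (ISRE) was searched by its consensus. The capitals are an Sp1 match at -93 in Il6st, counted to the start of the match from the gene's start, a Gata match at -245 and an E-box at -24 in Il6ra, and an Ets match at -147 beside Sp1 matches in Ifnar1. Of 32536 promoter windows of the same length, 33.0% held the Sp1 letters, 9.97% the Gata letters, 6.04% the E-box and 2.90% the Ets letters. No window of the 9 genes held the interferon response element, which 2.98% of all windows did, and of the 9 genes the GAS letters were in the window of Tnfrsf1a alone, against 7.04% of all windows. A match to letters is a description of the window and was not tied to binding.

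Ifngr1 (ENSMUSG00000020009.13, chr10:19591949-19610229, plus strand) encodes the ligand-binding chain of the receptor for interferon gamma, a cytokine that can bring HSC out of quiescence. Ifngr1 was measured in young HSC at 153, 128, 172, 146 and 176 CPM, in aged HSC at 173, 197, 301, 169 and 178 CPM and in NR-treated aged HSC at 124, 184, 227, 159.6 and 126 CPM. Aged replicate 3, the deepest library, was far above the rest of its group, and 3 of the 5 aged libraries exceeded every young library. The log2 difference of aged from young HSC was 0.40 (SE 0.18, adjusted p = 0.118, edgeR quasi-likelihood test) and was 0.20 without aged replicate 3. NR-treated and aged HSC differed by -0.32 (95% interval -0.69 to 0.05), and NR-treated and young HSC by 0.08 (-0.29 to 0.45). The second chain, Ifngr2, was at 30.6 ± 5.38 CPM in young, 30.4 ± 6.60 CPM in aged and 23.5 ± 9.35 CPM in NR-treated aged HSC (mean ± SD, n = 5) and passed the test in none of the comparisons.

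Ifnar1 (ENSMUSG00000022967.13, chr16:91485238-91507441, plus strand) encodes a chain of the receptor for type I interferons, which bring dormant HSC into cycle when given acutely. Ifnar1 was measured in young HSC at 31.2, 28.9, 41.8, 29.4 and 33.4 CPM, in aged HSC at 35.3, 22.1, 30.8, 22.2 and 24.7 CPM and in NR-treated aged HSC at 39.3, 39.4, 42.0, 38.4 and 34.6 CPM. The aged libraries included the lowest 3 values and the NR-treated libraries were close to each other, with a coefficient of variation of 6.92%. The groups still overlapped, since aged replicate 1 exceeded NR-treated replicate 5. NR-treated HSC were higher than aged HSC by 0.49 on the log2 scale (SE 0.15, 95% interval of the difference 0.17 to 0.80, adjusted p = 0.0502, edgeR quasi-likelihood test), which missed the threshold. It passed in 10 of 26 alternatives, with adjusted p-values from 0.0174 to 0.352 and differences from 0.41 to 0.63. Without aged replicate 1 the difference was 0.60 (adjusted p = 0.0194). Aged and young HSC differed by -0.25 (95% interval -0.57 to 0.06), and NR-treated and young HSC by 0.23 (-0.08 to 0.55). Ifnar2, the other chain of this receptor, was at 49.9 ± 9.26 CPM in young, 38.3 ± 7.12 CPM in aged and 43.1 ± 0.898 CPM in NR-treated aged HSC (mean ± SD, n = 5) and passed the test in none of the comparisons.

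Tnfrsf1a (ENSMUSG00000030341.17, chr6:125349362-125362484, plus strand) encodes the p55 receptor of tumour necrosis factor. Tnfrsf1a was measured in young HSC at 74.0, 67.9, 86.7, 77.3 and 59.6 CPM, in aged HSC at 94.8, 197, 80.4, 74.1 and 70.7 CPM and in NR-treated aged HSC at 64.7, 78.4, 65.7, 68.7 and 77.1 CPM. The 197 CPM of aged replicate 2, the shallowest library, rested on 152 counts and stood apart from the other 14 libraries, which lay between 59.6 and 94.8 CPM. The log2 difference was 0.43 in aged against young HSC (SE 0.21, adjusted p = 0.154) and -0.47 in NR-treated against aged HSC (SE 0.21, adjusted p = 0.160), by edgeR's quasi-likelihood test. Without aged replicate 2 these became 0.13 and -0.17. NR-treated and young HSC differed by -0.04 (95% interval -0.47 to 0.40). The other receptor of this cytokine, Tnfrsf1b, was at 27.8 ± 3.78 CPM in young, 35.5 ± 2.91 CPM in aged and 31.3 ± 5.36 CPM in NR-treated aged HSC (mean ± SD, n = 5) and also passed in none of the comparisons.

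Epor (ENSMUSG00000006235.6, chr9:21958897-21963506, minus strand) encodes the erythropoietin receptor, which is best known from erythroid progenitors and is found at low level in HSC. Epor was measured in young HSC at 11.2, 14.1, 12.6, 10.5 and 10.8 CPM, in aged HSC at 10.5, 25.9, 10.6, 11.2 and 7.23 CPM and in NR-treated aged HSC at 12.4, 13.1, 10.9, 10.6 and 16.3 CPM. Aged replicate 2 was again the highest library, with 20 counts, while aged replicate 5 was the lowest. The log2 difference was -0.02 in aged against young HSC (95% interval -0.55 to 0.50), 0.14 in NR-treated against aged HSC (-0.39 to 0.66) and 0.11 in NR-treated against young HSC (-0.42 to 0.64). The erythroid sums were higher in every aged library than in any other library, while Epor was not. Within groups Tnfrsf1a and Epor deviated together with a Pearson r of 0.861 over the 15 libraries, all points sharing depth and both genes being highest in aged replicate 2.

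The levels of both genes of a pair were compared as a ratio of counts within each library, which does not depend on scaling. Il6ra with Il6st, Ifngr1 with Ifngr2 and Ifnar1 with Ifnar2 encode chains of 1 receptor. Tnfrsf1a and Tnfrsf1b, and Tek and Tie1, encode separate receptors. There were 5 pairs and 15 comparisons, tested by exact two-sided permutation of 5 libraries against 5 (252 arrangements, smallest possible p = 0.00794) with Benjamini-Hochberg adjustment over the 15. None passed after adjustment and 3 had an unadjusted p under 0.05. With 1 library left out, 5 of the 15 passed (exact permutation, adjusted p = 0.0397 each). They were Il6ra to Il6st in aged and in NR-treated against young HSC and Ifnar1 to Ifnar2 in NR-treated against young HSC, all without young replicate 5, Ifnar1 to Ifnar2 in NR-treated against aged HSC without aged replicate 1, and Ifngr1 to Ifngr2 in aged against young HSC without aged replicate 4. The ratio of Il6ra to Il6st had a median of 0.866 in young, 0.506 in aged and 0.303 in NR-treated aged HSC. On the log2 scale it was -0.34, -0.15, 0.75, -0.21 and -0.57 in young, -1.24, -0.98, -0.76, -0.54 and -1.25 in aged and -1.02, -1.72, -1.98, -1.75 and -0.84 in NR-treated aged HSC, in replicates 1 to 5. All NR-treated libraries lay below all young libraries, while aged libraries overlapped with both. The mean log2 ratio differed by -0.85 in aged against young HSC (exact permutation p = 0.0159, adjusted 0.0794), by -1.36 in NR-treated against young HSC (exact permutation p = 0.00794, adjusted 0.0595) and by -0.50 in NR-treated against aged HSC (exact permutation p = 0.0873, adjusted 0.208). Since 5 libraries against 5 cannot give less than 0.00794 and 15 comparisons were adjusted together, a single separated pair of groups could not pass alone. Both comparisons whose groups separated had this smallest p and an adjusted p of 0.0595 by exact permutation. Whether they passed therefore depended on the p-values of the other comparisons, with all libraries and with 1 left out. Without young replicate 3 and aged replicate 2 the difference of aged from young HSC was -0.63.

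The ratio of Ifnar1 to Ifnar2 on the log2 scale was -0.68, -0.49, -0.58, -0.49 and -0.72 in young, 0.01, -0.36, -0.30, -1.07 and -0.81 in aged and -0.13, -0.14, -0.08, -0.16 and -0.28 in NR-treated aged HSC. All 5 NR-treated libraries lay above all 5 young libraries, and the aged libraries spread over the whole range. NR-treated HSC differed from young HSC by 0.43 (exact permutation p = 0.00794, adjusted 0.0595) and from aged HSC by 0.35 (exact permutation p = 0.111, adjusted 0.208). The ratio of Ifngr1 to Ifngr2 had medians of 5.27, 6.88 and 8.77 in young, aged and NR-treated aged HSC, and no comparison of it passed (adjusted p of at least 0.190). The ratios of Tnfrsf1a to Tnfrsf1b and of Tek to Tie1 passed in none of the comparisons (adjusted p of at least 0.208).

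**Figure D4:**
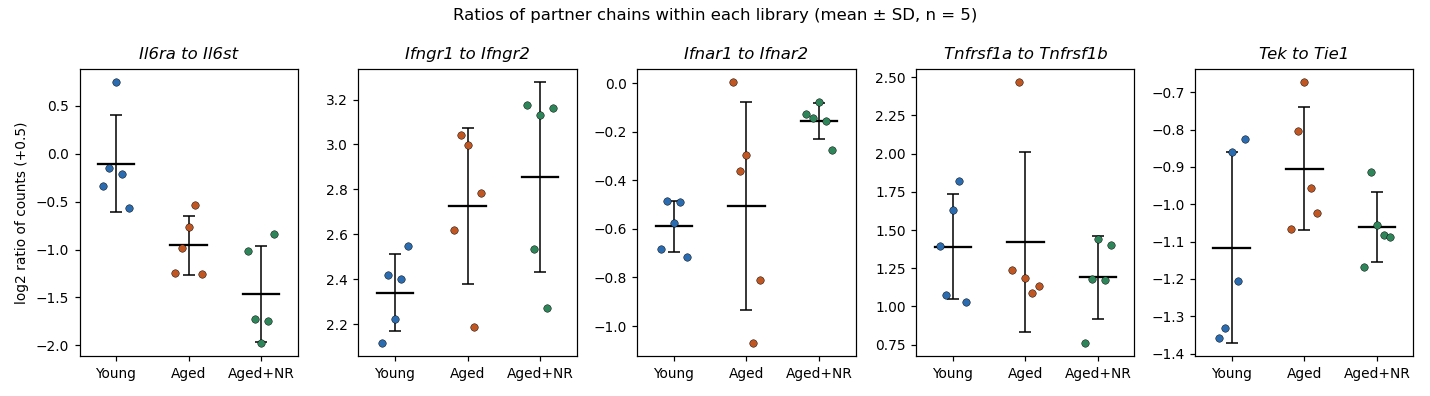
Log2 ratio of counts of both genes (vertical axes, scaled to each panel and not starting at 0) for 5 pairs of receptor genes, with 1 point per library and bars for the mean ± SD (n = 5). The NR-treated libraries lie below all young libraries for Il6ra to Il6st and above all of them for Ifnar1 to Ifnar2, and aged replicate 2 stands apart at 2.47 for Tnfrsf1a to Tnfrsf1b.

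Other genes of these pathways were taken from 9 lists: other receptors, ligands, Jak and Stat genes, negative regulators, the relays of Kit and Tek, of Cxcr4 and of Tnfrsf1a, enzymes of receptor shedding, and Stat target genes. The lists were chosen with earlier results of these data known, which limits the comparison of their shares with those of all genes. Of 162 listed genes 145 were measured, and between aged and young HSC 38 passed the test (26.2%, against 19.3% of all genes), 20 higher and 18 lower in aged HSC. Between NR-treated and aged HSC 15 passed (10.3%, against 8.07%), 3 higher and 12 lower, and between NR-treated and young HSC 16 passed (11.0%, against 4.47%), 8 in each direction. With library totals in place of TMM, which moved the median log2 fold change of all genes to -0.16 in the first comparison and 0.16 in the second, the split was 15 higher and 33 lower in the first and 12 higher and 6 lower in the second.

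Among 40 other receptors of cytokines, chemokines and growth factors, 6 rose and 4 fell with age. Osmr, which encodes the oncostatin M receptor that pairs with gp130, rose most, from 0.998 ± 0.427 CPM in young to 9.92 ± 0.616 CPM in aged HSC (mean ± SD, n = 5), a log2 fold change of 3.27 (SE 0.41, adjusted p = 1.51e-05, edgeR quasi-likelihood test). The 5 young libraries lay between 0.726 and 1.75 CPM and the 5 aged libraries between 9.24 and 10.4 CPM. The young values rested on 5, 2, 2, 2 and 3 counts in replicates 1 to 5, so the size of the rise is uncertain. Osmr passed the filter on low values only through the aged and NR-treated libraries, where it was higher. A gene this low in young HSC was in the table only if it was higher elsewhere. Its tests against young HSC are therefore given as a description and not as support for a rise. NR-treated libraries were at 4.80, 6.26, 1.56, 8.401 and 3.00 CPM, higher than young HSC by 2.23 on the log2 scale (adjusted p = 0.00330) and different from aged HSC by -1.04 (adjusted p = 0.0535), which missed the threshold. Kdr, which encodes a receptor of vascular endothelial growth factor, rose with age by 1.55 (adjusted p = 3.47e-05), and its increase over young HSC in the NR-treated group was 1.15 (adjusted p = 0.00212). Kdr was the only one of 4 measured endothelial markers to pass. Emcn had log2 differences of -0.42 in aged and -0.69 in NR-treated against young HSC (adjusted p = 0.137 and 0.0538), Egfl7 was 0.29 higher in aged than in young HSC (adjusted p = 0.143), and Plvap was at no more than 2.82 CPM in any library. Cdh5 and Flt4 were not in the table used here. Flt3, which encodes a cytokine receptor of early lymphoid and multipotent progenitors, fell by 2.03 with age (adjusted p = 1.07e-04). In NR-treated against aged HSC, Tie1 rose, while Ccr2 (log2 -3.62, adjusted p = 0.0253) and Csf1r (-2.39, adjusted p = 0.0364), both receptors of monocytes, fell. The Ccr2 call held in 20 and the Csf1r call in 18 of 25 alternatives. Of the 40 receptors 4 passed in this comparison (10.0%, against 8.07% of all genes). The count was 0 without aged replicate 3, aged replicate 4, NR-treated replicate 2 or NR-treated replicate 3. It was 1 without aged replicate 5 or NR-treated replicate 4. The summed level of 6 monocyte markers, 2 of which are Ccr2 and Csf1r, was 211 to 718 CPM in aged and 4.75 to 73.5 CPM in NR-treated aged HSC, and its part in these differences was not tested.

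The chains that pair with gp130 did not move as 1 group. This grouping and the genes Il27ra, Lifr and Il11ra1 were chosen after their values were seen. Il27ra, which encodes the interleukin-27 receptor, rose with age by 0.52 (adjusted p = 0.0144) from 28.1 ± 3.75 to 39.9 ± 4.66 CPM and was at 46.1 ± 7.06 CPM in NR-treated aged HSC (mean ± SD, n = 5). Lifr, the receptor chain of leukemia inhibitory factor, and Il11ra1, that of interleukin-11, passed in none of the comparisons, at 4.12 ± 1.74 and 63.2 ± 8.38 CPM in aged HSC. Il6ra, as described, did not pass either.

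**Figure D5:**
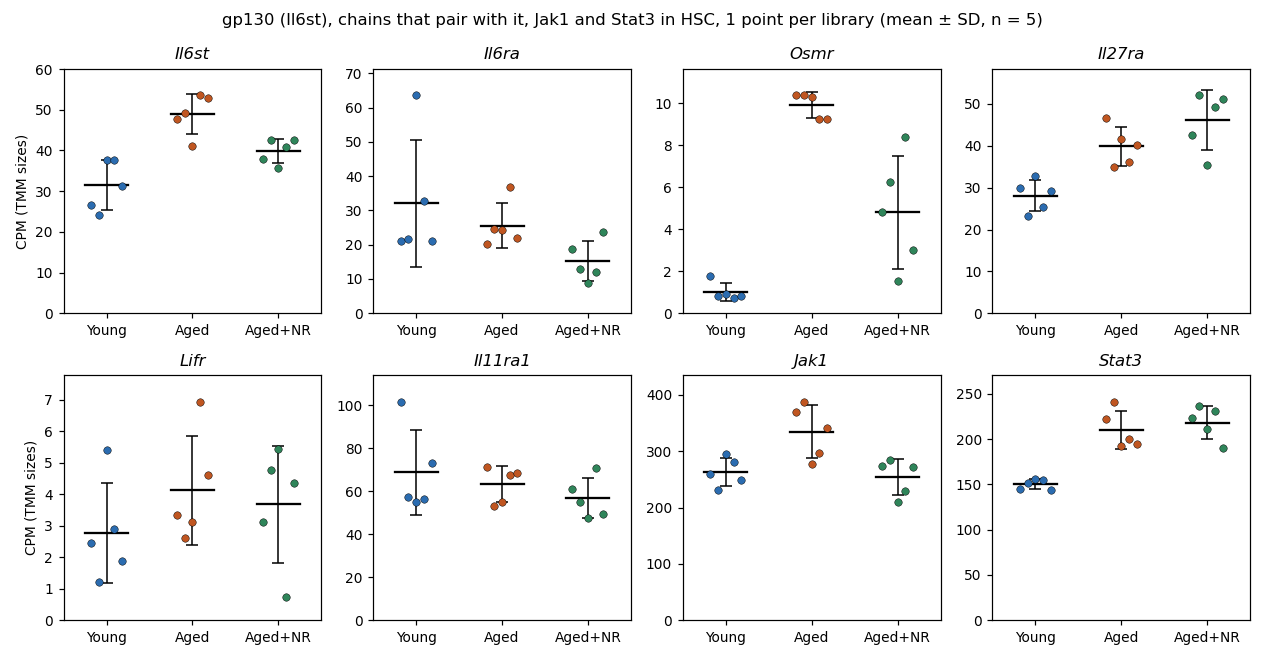
CPM (TMM sizes, vertical axes from 0) of Il6st, 5 genes for chains that pair with gp130, and Jak1 and Stat3, with 1 point per library and bars for the mean ± SD (n = 5). Aged libraries lie above all young libraries for Il6st, Osmr, Il27ra and Stat3, whereas the groups overlap for Il6ra, Lifr and Il11ra1. Osmr passed the filter on low values only through libraries of the aged and NR-treated groups.

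Of the 12 Jak and Stat genes, 7 passed between aged and young HSC (58.3%, against 19.3% of all genes). In NR-treated against aged and against young HSC 2 passed each (16.7%, against 8.07% and 4.47%). Stat3, the main factor downstream of gp130, rose by 0.48 (adjusted p = 0.00187), and Stat4, Irf9 and Jak1 also rose, the call of Jak1 holding in 8 of 26 alternatives. Stat5b, which acts after cytokine and growth hormone receptors, fell by 0.55 (adjusted p = 0.00370), and so did Jak2, the kinase of the erythropoietin receptor, in 17 of 26 alternatives. The median log2 difference of the 12 genes was -0.05, against -0.03 for all genes. With library totals 3 of this list rose and 3 fell. Without young replicate 3 and aged replicate 2, 4 of the 12 passed, 3 of them higher. In NR-treated HSC, Stat3 was higher than in young HSC by 0.54 (adjusted p = 0.00155). Jak1, which serves gp130 and both interferon receptors, fell by 0.39 in NR-treated against aged HSC (adjusted p = 0.0438), and Tyk2, which binds Ifnar1, rose by 0.56 (adjusted p = 0.0380), calls that held in 8 and 16 of 26 alternatives.

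Of 21 negative regulators of cytokine signals, 3 passed in aged against young HSC (14.3%), 2 in NR-treated against aged HSC (9.52%) and 2 in NR-treated against young HSC (9.52%), against 19.3%, 8.07% and 4.47% of all genes. All were lower, while the median log2 difference of the 21 was -0.12, 0.07 and -0.08 in the same order. Socs5, Pias2 and Cbl were lower in aged than in young HSC, by log2 differences of -0.73, -0.59 and -0.53, the call of Cbl holding in 19 of 26 alternatives. Socs2, a feedback inhibitor induced by Stat5, was at 79.2 ± 20.4 CPM in young, 57.7 ± 15.2 CPM in aged and 26.5 ± 10.3 CPM in NR-treated aged HSC (mean ± SD, n = 5). It fell by 1.14 in NR-treated against aged HSC (adjusted p = 0.0103) and fell by 1.57 against young HSC (adjusted p = 4.15e-04, edgeR quasi-likelihood test), in 26 of 26 alternatives each. Cish, another Stat5-induced inhibitor, fell by 1.01 in NR-treated against young HSC (adjusted p = 0.0145), and Ptpn2, a phosphatase of Jak kinases, fell by 0.36 against aged HSC (adjusted p = 0.0423), a call that held in 12 of 26 alternatives. In aged against young HSC 1 member was called higher with DESeq2 and limma-voom and without aged replicate 1 or aged replicate 2. With library totals 1 of 2 calls of this list in NR-treated against aged HSC was higher and 1 lower.

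Downstream of Kit and Tek, 5 of 18 genes passed between aged and young HSC (27.8%, against 19.3% of all genes). Dok1, an adaptor that limits kinase signals, rose by 0.82 (adjusted p = 2.23e-04), and Pik3r1, the regulatory subunit of PI3K, rose by 0.74 (adjusted p = 3.73e-04). Pik3r1 was at 257 ± 27.4 CPM in young, 429 ± 61.9 CPM in aged and 252 ± 40.004 CPM in NR-treated aged HSC (mean ± SD, n = 5), and it fell by 0.77 in NR-treated against aged HSC (adjusted p = 0.00222). Akt1 rose there by 0.51 (adjusted p = 0.0478), a call that held in 10 of 26 alternatives and was lost without any 1 of the 5 aged libraries and with the replicate block. Downstream of Cxcr4, 8 of 18 genes passed between aged and young HSC (44.4%, against 19.3% of all genes), 3 higher and 5 lower. Rgs1 and Rgs2, which end G protein signals, had log2 differences of -1.19 and -1.18, and Dpp4, a protease that inactivates Cxcl12, fell by 0.79 (adjusted p = 0.00703, 0.00130 and 0.00384). These 3 were also lower in NR-treated than in young HSC, by log2 differences of -1.35, -1.58 and -0.93. Gnai3, a G protein subunit, and Cdc42, a GTPase of cell polarity, fell in NR-treated against aged HSC with log2 differences of -0.53 (adjusted p = 0.0316) and -0.40 (adjusted p = 0.0213), each in 20 of 26 alternatives, but with library totals the 3 calls of this list in that comparison were all higher.

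Of 11 genes downstream of Tnfrsf1a only Traf1, an adaptor, passed, higher by 0.81 in aged than in young HSC (adjusted p = 0.0124, edgeR quasi-likelihood test). That is 9.09% of the list, against 19.3% of all genes. No gene of this list passed in NR-treated against aged or young HSC, where 8.07% and 4.47% of all genes did. Before adjustment the quasi-likelihood test gave p under 0.05 for 1 of the 11 in NR-treated against aged and 2 in NR-treated against young HSC, while DESeq2 and the likelihood ratio test each called 0 and 1 after adjustment. Of 8 genes of receptor shedding, Adam10, a protease that releases the outer part of several receptors, rose with age by 0.41 (adjusted p = 0.0410, edgeR quasi-likelihood test). It fell by 0.50 in NR-treated against aged HSC (adjusted p = 0.0332, same test). These calls held in 15 and 17 of 26 alternatives. Adam10 was the only gene of this list called in either comparison (12.5% each, against 19.3% and 8.07% of all genes). Adam17, which sheds Tnfrsf1a and Il6ra proteins, was at 54.9 ± 17.2, 56.2 ± 9.35 and 49.9 ± 4.94 CPM in young, aged and NR-treated aged HSC and passed in none of the comparisons. Of 10 Stat targets, Bcl3 and Pim2 rose with age by 1.14 and 0.84 (adjusted p = 0.0103 and 8.70e-04, edgeR quasi-likelihood test). Id1 and Junb fell in NR-treated against aged HSC with log2 differences of -1.84 and -0.88 (adjusted p = 0.00906 and 0.0440, same test). The calls of Id1 and Junb held in 24 of 25 and 13 of 26 alternatives. The share called was 20.0% in each of these comparisons, against 19.3% and 8.07% of all genes. Of 15 ligands 7 were measured, while Kitl, Il6, Ifng and Epo were not in the table used here. Angpt2, an angiopoietin, fell by 1.62 on the log2 scale in aged against young HSC (adjusted p = 0.0291, edgeR quasi-likelihood test) and in 18 of 25 alternatives. It was the only ligand called there (14.3%, against 19.3% of all genes).

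The gene most like each receptor gene was sought among 10052 genes by Pearson r of log2 CPM over the 15 libraries, which share depth and group. It was Bicd1 for Kit (r = 0.859), Slc22a17 for Tek (0.790), Abhd13 for Cxcr4 (0.868), Kcnk6 for Il6st (0.937), Ugcg for Ifngr1 (0.867), Bcl2l2 for Ifnar1 (0.954), Vdr for Tnfrsf1a (0.924) and Nol6 for Epor (0.821), with Fn1 for Il6ra as given above. When deviations from the group means were used in place of the values, Bcl2l2 for Ifnar1 and Fn1 for Il6ra were again the most alike and the other 7 genes were replaced. Kcnk6, a potassium channel gene, rose with age by 1.96 on the log2 scale, as Il6st did by 0.63. Since Kcnk6 was picked by r over libraries that include the group differences, a shared rise follows in part from the choice. On deviations from group means it ranked 18 for Il6st. Its mean in young HSC was 2.38 CPM and its lowest count 3.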

How the data were processed

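RNA was sequenced from HSC of 15 mice (5 young, 5 aged, 5 NR-treated aged) as 3′-biased libraries with a 10 bp unique molecular identifier. The authors aligned reads with STAR 2.4.2a to GRCm38 (mm10), removed reads with duplicated identifiers, counted the rest per gene with featureCounts (tools and versions from the submitters' processing notes) and deposited unnormalised counts for 16154 genes that passed a filter on low values. From these counts CPM and tests were computed with edgeR 4.0.16 in R 4.3.3 (TMM, quasi-likelihood test, Benjamini-Hochberg). The study used edgeR's likelihood ratio test, which is an alternative here. Others were DESeq2 1.42.0, limma-voom 3.58.1, fits of only 2 groups, library totals, DESeq2 size factors, a minimum of 10 counts in each library (8444 genes), thinning to 764119 counts, the replicate number as a block, a prior count of 10, group medians and each library left out in turn. Leaving out young replicates 3 and aged 2, or young 1 and 5, was added after the data were seen. Ratios added 0.5 to each count. Other steps used Python 3.11.15, SciPy 1.17.1 and pandas 2.3.3, and the tests were checked on simulated data.

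The 9 genes, the 9 lists and the markers were chosen with earlier results of these data known. Named genes are the 9, their partners in the ratios, up to 3 called genes with the largest change of each list and comparison at a mean of at least 5 CPM, and the gene most alike by r at that mean. Exceptions named in counts of calls are Stat4, Irf9, Jak2 and Angpt2, besides Il27ra, Lifr, Il11ra1 and Adam17, all chosen after their values were seen. Replicate numbers denote different mice, and libraries of the same number did not deviate together (mean r 0.00211, from -0.270 to 0.133), so they were not paired. No libraries of a group were copies (chi-square per degree of freedom 3.00 to 16.7). Positions are from GENCODE on GRCm38, and promoters from RefSeq for all 9 genes. Differences in CPM carry counting error that grows as totals fall. Some members of the pathway lists are counted but not reported by name here.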

Additional observations from a re-analysis of the deposited data

Results flagged for a closer look

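In 42 groups of 5 libraries examined (9 receptor genes and 5 ratios in 3 groups), 6 had a highest or lowest library whose gap to the next was more than 0.71 of the whole range, where chance gives about 5% of groups. Ifngr1 was 301 CPM in aged replicate 3, against 169 to 197 CPM in the rest of the group (3562 counts, exact Poisson 95% interval 291 to 311 CPM). Tnfrsf1a was 197 CPM in aged replicate 2, against 70.7 to 94.8 CPM (152 counts, interval 167 to 231 CPM), and its log2 ratio to Tnfrsf1b there was 2.47, against 1.09 to 1.24. Epor was 25.9 CPM in the same library, against 7.23 to 11.2 CPM (20 counts, interval 15.8 to 40.1 CPM). Il6ra was 63.8 CPM in young replicate 3, against 21.0 to 32.7 CPM (142 counts, interval 53.7 to 75.2 CPM), and 37.0 CPM in aged replicate 4, against 20.1 to 24.7 CPM (208 counts, interval 32.1 to 42.4 CPM). The intervals cover counting error only. Of these 6 values 3 were in aged replicate 2, the library with the smallest total.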

How the results depend on the processing

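The count of receptor genes called in aged against young HSC was 1, Il6st, under every alternative tried. In NR-treated against aged HSC it was 0, and 1 (Ifnar1) with the likelihood ratio test, DESeq2, limma-voom, DESeq2 size factors or a minimum of 10 counts (which leaves no value for Cxcr4), 2 (Kit and Ifnar1) with library totals, and 0 to 1 with a library left out. With the replicate number as a block it was 1, Ifnar1 at 0.52 (adjusted p = 0.0413), and that block changed no other call of a receptor gene. In NR-treated against young HSC it was 0, and 1 (Il6ra) with the likelihood ratio test, DESeq2 or without young 1 and 5, and 0 to 1 with a library left out. Ifnar1 passed without young 2 (0.48), young 3 (0.48) or aged 1 (0.60), Kit without NR-treated 1 (0.35), and Il6ra without young 1 (-1.16), young 2 (-1.14), young 5 (-1.16) or NR-treated 5 (-1.26). Of 699 alternative values of single genes 661 kept direction and side of the threshold, 19 turned sign and 19 newly passed. Log2 differences that turned sign, with the range over libraries left out, were in aged against young HSC Tek (-0.089 to 0.0045), Cxcr4 (-0.31 to 0.20), Epor (-0.25 to 0.13) and Il6ra (-0.49 to 0.094), in NR-treated against aged HSC Epor (-0.016 to 0.36), and in NR-treated against young HSC Ifngr1 (-0.065 to 0.17), Tnfrsf1a (-0.11 to 0.027) and Epor (-0.000501 to 0.18). Cxcr4 in aged against young HSC was also -0.014 with DESeq2, -0.11 with library totals, -0.016 after thinning and -0.12 with the replicate block. Without young 3 and aged 2, Il6ra in aged against young HSC was 0.10 and Tnfrsf1a in NR-treated against young HSC 0.027. The ratio of Tnfrsf1a to Tnfrsf1b in aged against young HSC was -0.21 with medians, -0.17 without young 3 and aged 2, -0.085 without young 1 and 5 and -0.23 to 0.14 with a library left out, and in NR-treated against aged HSC 0.029 and -0.32 to 0.029. With a library left out, Tek to Tie1 in NR-treated against young HSC was -0.0059 to 0.13, Ifnar1 to Ifnar2 -0.044 to 0.22 in aged against young, 0.21 to 0.48 in NR-treated against aged and 0.40 to 0.46 in NR-treated against young HSC, Ifngr1 to Ifngr2 0.31 to 0.52 in aged against young and -0.0045 to 0.28 in NR-treated against aged HSC, and Il6ra to Il6st -0.97 to -0.64 in aged against young and -1.51 to -1.14 in NR-treated against young HSC. Of the 15 ratio comparisons 0 passed as reported, and 5 passed with 1 library left out (young 5, aged 1 or aged 4). The cause of these changes was not tested. The smallest counts, 7 for Cxcr4 and 20 for Epor in aged replicate 2, limit what those 2 genes can show.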
